A study of Mus musculus with 3 samples.

Results

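The neutrophil granule and S100 genes described here are Ngp, Ltf, Lcn2, Camp, S100a8, S100a9, Retnlg, Mmp8, Mmp9 and Chil3, which are 10 of the 32285 genes listed for each barcode. They were chosen by name, and each name matched 1 gene. Their levels were read in splenic neutrophils, taken as barcodes with 10 or more UMIs (unique molecular identifiers, 1 per captured RNA molecule) of S100a8 plus S100a9 and none of Cd79a, and then in B, NK and plasma cells, which are not known for making these RNAs and served as a measure of free RNA in the droplets. S100a8 and S100a9 set the neutrophil gate, so their level in it is fixed in part by that choice, while the other 8 genes were not used by it.

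Neutrophils pack their antimicrobial proteins into granules that are made in sequence as the cell matures in the bone marrow. Azurophil granules, with myeloperoxidase and elastase, are filled first, specific granules, with lactoferrin, cathelicidin and lipocalin, come next, and gelatinase granules, with matrix metalloproteinases, come last. The granule RNAs are largely switched off in the circulating cell, whereas S100a8 and S100a9, which form the cytosolic calcium-binding complex calprotectin, stay abundant through the cell's life.

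Splenocytes were profiled by droplet-based 5′ single-cell RNA sequencing in 3 libraries, each with cells of 2 conditions, after CD3-positive T cells had been depleted with microbeads. The C57BL/6 control library held C57BL/6 cells, from males given sham treatment and from females. The C57BL/6 Ang II library held C57BL/6 mice given angiotensin II (Ang II) by minipump, either with placebo or with 2-HOBA, a scavenger of isolevuglandins. The B6.SLE123 library held B6.SLE123 mice, a lupus-prone strain on the C57BL/6 background, given 2-HOBA or placebo. Those C57BL/6 mice that had pumps received them at 10 weeks of age for 2 weeks, and the study mentions no pump for its female C57BL/6 controls. The B6.SLE123 mice were treated from 7 weeks for 6 weeks, and the animals of all 3 libraries are given as 12 to 14 weeks old. Cells of 3 mice were pooled for each condition and carried hashtag antibodies, C0301 to C0306, which were not named for conditions, so that the 6 hashtag populations of a library were described but not compared as groups. Sex, treatment and strain cannot be told apart within these comparisons, since the series' design text gives the Ang II mice as male and the study gives the B6.SLE123 mice as female.

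In the order control, Ang II and B6.SLE123, in which sets of 3 values are given from here on, the libraries held 18218, 16062 and 20691 barcodes with a median of 1852, 2842 and 2082 UMIs. Of the barcodes in a library, 2.28% to 2.95% carried a sequence that another library also held. After filtering, 15700, 14023 and 16708 cells were kept, of which 556 (3.54%), 594 (4.24%) and 646 (3.87%) were neutrophil-gated, with a median of 1187.5, 2148 and 1721 UMIs. All 10 neutrophil markers on a separate list, such as Csf3r, Cxcr2 and Ly6g, were detected in the gate in each library, and their summed level was 5552 CPM (a gene's UMIs scaled to a common total of all UMIs in the class) in the control, 4416 CPM in the Ang II and 3206 CPM in the B6.SLE123 library. All 5 monocyte markers were detected too, at a summed 879, 1009 and 1551 CPM, and 2 of 4 eosinophil markers were detected at a summed 11.05, 8.18 and 3.21 CPM, with Epx and Prg2 at 0 UMIs. The gate was rarely close, as 4, 3 and 4 barcodes held 8 or 9 UMIs of S100a8 plus S100a9. There was 1 library for each group, so no difference has a replicate check, no test was made, and every interval is a 95% interval for counting error only.

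Ngp, Camp and Ltf lie near each other on mouse chromosome 9 (GRCm38). Camp spans chr9:109847379-109849617 on the minus strand, Ngp spans chr9:110419747-110423012 on the plus strand, and Ltf spans chr9:111019271-111042767 on the plus strand, with 570 kb between the first pair and 596 kb between the second. Since these 3 varied together from cell to cell, as described further on, the bases before their starts are shown beside those of Retnlg on chromosome 16, which did not follow them. The sequences are from RefSeq (GRCm38.p6), read 5′ to 3′ on the gene's strand and ended where either RefSeq or GENCODE places the gene's first base. Capitals mark a match to TTGCNNAA on either strand, the core letters of sites bound by the C/EBP family, whose member C/EBPε is known as a regulator of specific granule genes. The windows are chr9:110419558-110419746 for Ngp, chr9:111019042-111019270 for Ltf, chr9:109849618-109849706 for Camp and chr16:48872358-48872607 for Retnlg.
Ngp: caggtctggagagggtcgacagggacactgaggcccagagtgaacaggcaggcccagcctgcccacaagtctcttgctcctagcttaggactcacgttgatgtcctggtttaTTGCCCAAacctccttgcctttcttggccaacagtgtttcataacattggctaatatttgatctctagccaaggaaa
Ltf: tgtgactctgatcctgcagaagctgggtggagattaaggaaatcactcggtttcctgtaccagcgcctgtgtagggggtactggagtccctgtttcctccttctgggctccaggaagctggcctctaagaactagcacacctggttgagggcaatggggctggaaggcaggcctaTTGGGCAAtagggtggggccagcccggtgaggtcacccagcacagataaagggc
Camp: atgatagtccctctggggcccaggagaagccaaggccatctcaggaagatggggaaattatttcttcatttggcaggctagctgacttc
Retnlg: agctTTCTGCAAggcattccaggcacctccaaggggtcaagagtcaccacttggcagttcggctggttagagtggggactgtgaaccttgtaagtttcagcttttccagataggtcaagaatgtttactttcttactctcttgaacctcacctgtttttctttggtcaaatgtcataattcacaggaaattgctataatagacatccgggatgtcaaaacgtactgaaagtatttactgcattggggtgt

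The match shown in Ngp, TTGCCCAA, began 138 bases before the RefSeq start, the one in Ltf, TTGGGCAA, 75 bases before it, and the one in Retnlg, TTCTGCAA, 246 bases before it. A second match in Ngp, TTGGGCAA, began 11 bases before the RefSeq start, beyond the end of the window shown. No match stood in the 89 bases shown for Camp. Over 250 bases, a match was found in 6 of the 9 members in the table and in 9.56% of all 32851 promoters. The letters GAGGAA, the core bound by PU.1, were found in 4 of the 9 and in 23.3% of all promoters. These motifs were picked after the levels were seen, and a match describes the letters only.

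The specific granule genes were higher in neutrophil-gated cells of the Ang II and B6.SLE123 libraries than in those of the control library. Ngp, which encodes the cystatin-like neutrophilic granule protein, stood at 27305 CPM (27008 to 27606) in the control library. It was at 44855 CPM (44608 to 45103) in the Ang II library and at 42825 CPM (42551 to 43101) in B6.SLE123. Its log2 ratio to control was 0.72 (0.70 to 0.73) in the Ang II and 0.65 (0.63 to 0.67) in the B6.SLE123 library. The hashtag populations overlapped between the libraries. In the control library 4 of the 6 lay between 11653 and 14638 CPM, while C0305 reached 28771 CPM and C0302 37472 CPM. In the Ang II library they ran from 30256 to 50314 CPM, with a median of 44550 CPM, and in the B6.SLE123 library from 19673 CPM, in a population of 25 cells, to 46442 CPM, with a median of 43248 CPM.

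Camp, the gene for the antimicrobial peptide cathelicidin, was at 31844 CPM in the control, 35917 CPM in the Ang II and 44907 CPM in the B6.SLE123 library. This order differed from that of Ngp, since Camp was highest in the B6.SLE123 library (log2 ratio 0.50, 0.48 to 0.51) and only slightly above control in the Ang II library (0.17, 0.16 to 0.19). Ltf, the gene for the iron-binding protein lactoferrin, had the opposite order of the 2 libraries, with 6074 CPM in the control, 11069 CPM in the Ang II and 8389 CPM in the B6.SLE123 library, at log2 ratios of 0.87 and 0.47. Lcn2, the gene for the siderophore-binding lipocalin NGAL, was at 11635, 17179 and 16425 CPM, with log2 ratios of 0.56 and 0.50. The lowest, median and highest hashtag populations for Lcn2 were 5486, 8063 and 16096 CPM in the control, 11491, 17075 and 19521 CPM in the Ang II, and 9339, 16529 and 18658 CPM in the B6.SLE123 library, so that the highest control population overlapped the lower ones of the others. Chil3, which encodes the chitinase-like protein Ym1, went the same way, from 3075 CPM in the control to 4749 CPM in the Ang II and 5098 CPM in the B6.SLE123 library (log2 ratios 0.63 and 0.73). The RNA of its close relative Chil4 held 0, 1 and 0 UMIs over all kept cells, where Chil3 held 5137, 15951 and 13763.

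In the summed UMIs of the gate, Mmp9 and Retnlg were lower in both libraries than in the control, and Mmp8 was higher in the Ang II library alone. Mmp9, the gene for gelatinase B, was at 1072 CPM (1013 to 1132) in the control, 943 CPM (907 to 979) in the Ang II and 697 CPM (662 to 733) in the B6.SLE123 library, a log2 ratio of -0.18 and -0.62. Mmp8, the gene for neutrophil collagenase, was at 548, 716 and 499.8 CPM, with log2 ratios of 0.38 (0.26 to 0.52) and -0.13 (-0.27 to 0.01), so that its interval in the B6.SLE123 library spans 0. Its B6.SLE123 ratio changed sign with each cell weighted equally (0.49), with each hashtag population weighted equally (0.12) and with a gate on Csf3r, described further on (0.07). Retnlg, which encodes a resistin-like protein, was at 8873, 6943 and 7823 CPM, with log2 ratios of -0.35 and -0.18. Its hashtag populations ran from 7564 to 11452 CPM in the control, from 5498 to 9624 CPM in the Ang II library and from 4863 to 12530 CPM in B6.SLE123, so the 3 ranges overlapped. With the Csf3r gate, Retnlg was at a log2 ratio of -0.01 (-0.06 to 0.03) in the Ang II and 0.22 (0.16 to 0.27) in the B6.SLE123 library. Mmp9 was then at 0.02 (-0.11 to 0.16) and -0.50 (-0.69 to -0.31).

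S100a8 and S100a9 were the most abundant members in each library. S100a8 was at 123749, 140973 and 118488 CPM and S100a9 at 150027, 153358 and 155908 CPM , with log2 ratios between -0.06 and 0.19. Together the 10 members held 36.4%, 41.7% and 40.1% of all UMIs in the gate. The members thus weigh on the total that CPM is scaled to, and with them left out of it the log2 ratio of the 4 specific granule genes was 0.63 and 0.64, as against 0.50 and 0.55 with them in.

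**Figure D1:**
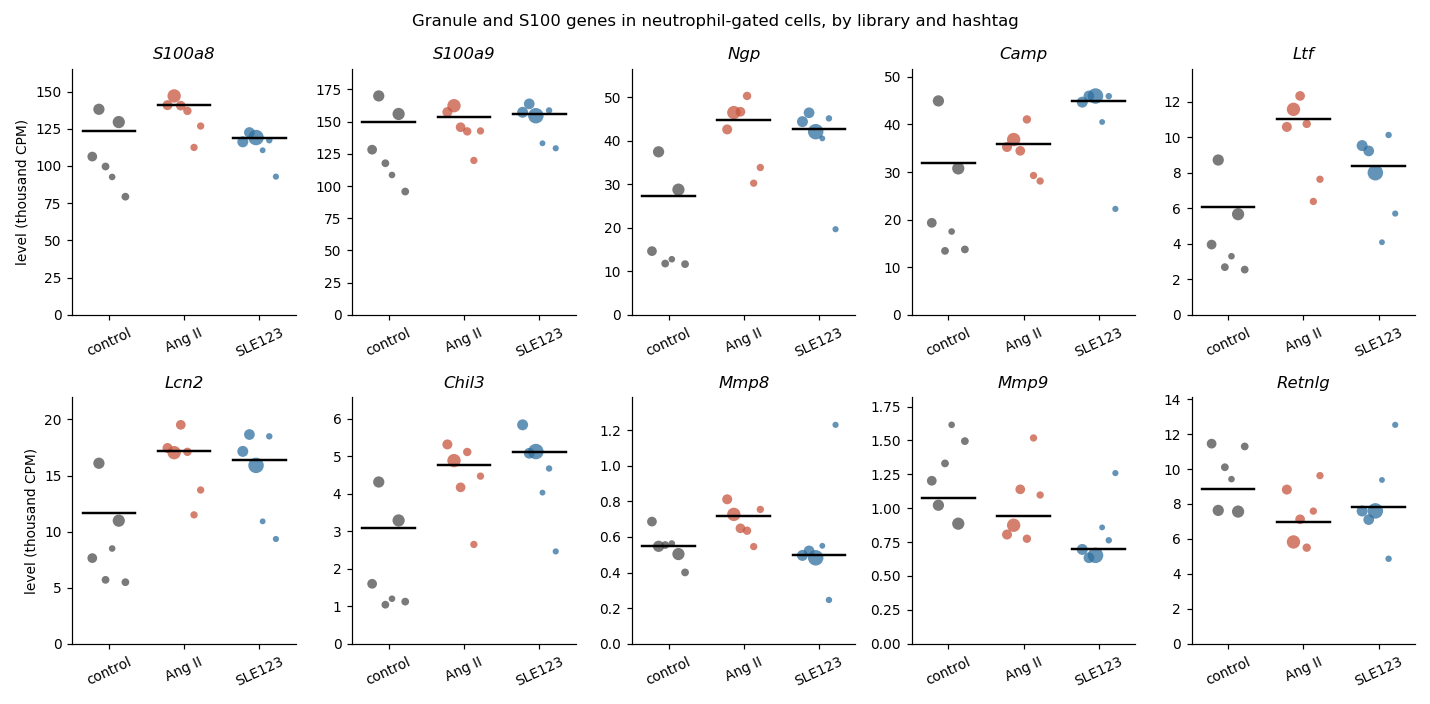
Each panel plots the level of 1 gene in neutrophil-gated cells in units of 1000 CPM, with a point for each of the 6 hashtag populations of a library (larger for more cells) and a bar for the whole library. For Ngp the control points lie between 11653 and 37472 CPM and the Ang II points between 30256 and 50314 CPM, while for Retnlg the 3 libraries overlap.

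No member passed a 2-fold difference in either direction when UMIs were summed over the gate. Of all genes with 50 or more UMIs over both libraries, 1.67% were 2-fold or more higher and 2.16% lower in the Ang II library (5086 genes), and 6.86% higher and 5.64% lower in the B6.SLE123 library (4837 genes). The median log2 ratio of the 10 members was 0.29 in the Ang II and 0.26 in the B6.SLE123 library, beside -0.07 and -0.01 over all genes. Summed over Ngp, Ltf, Lcn2 and Camp, the level was 76858 CPM in the control, 109020 CPM in the Ang II and 112546 CPM in the B6.SLE123 library, a log2 ratio of 0.50 (0.49 to 0.52) and 0.55 (0.54 to 0.56). Both ratios share the control library, and without its population C0302 they were 0.87 and 0.92, with 3 members and 1 member past 2-fold. The share of all genes past 2-fold was not computed without C0302.

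The size of the difference changed with how cells were weighted, and cells rich in specific granule RNA held more UMIs than the others, as given further on. With each cell weighted equally, the log2 ratio of the 4 genes was 1.07 in the Ang II and 1.34 in the B6.SLE123 library, and 3 and 5 members were 2-fold or more higher, beside 6.49% and 10.6% of all genes, while none was 2-fold lower (1.49% and 3.89% of all genes). By gene, the Ang II library then stood at 1.34 for Ngp, 1.42 for Ltf and 1.32 for Chil3, and the B6.SLE123 library at 1.51 for Ngp, 1.30 for Camp, 1.32 for Ltf, 1.08 for Lcn2 and 1.59 for Chil3. Retnlg changed sign in the B6.SLE123 library, to 0.27. With each hashtag population weighted equally the ratio of the 4 genes was 0.85 and 0.88, and 3 and 2 members were past 2-fold higher (5.66% and 10% of all genes) and none lower (4.64% and 7.9%). A gate on 2 or more UMIs of Csf3r, the receptor for granulocyte colony-stimulating factor, in place of the S100 genes took 394, 400 and 249 cells and gave 1.20 and 1.20, with 3 and 5 members past 2-fold higher (2.19% and 3.12% of all genes) and none lower (1.23% and 3.28%). It held 64.0%, 61.4% and 32.4% of the neutrophil-gated cells. Csf3r was low in cells rich in specific granule RNA, as given further on, so the 2 gates do not take the same mix of cells. When the study's limits of 200 and 3500 were read as UMIs rather than genes, which removes the deepest cells, the ratio was -0.12 in the Ang II and 1.96 in the B6.SLE123 library. The Ang II library was thus above control with cells over 3500 UMIs in and not with them out.

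**Figure D2:**
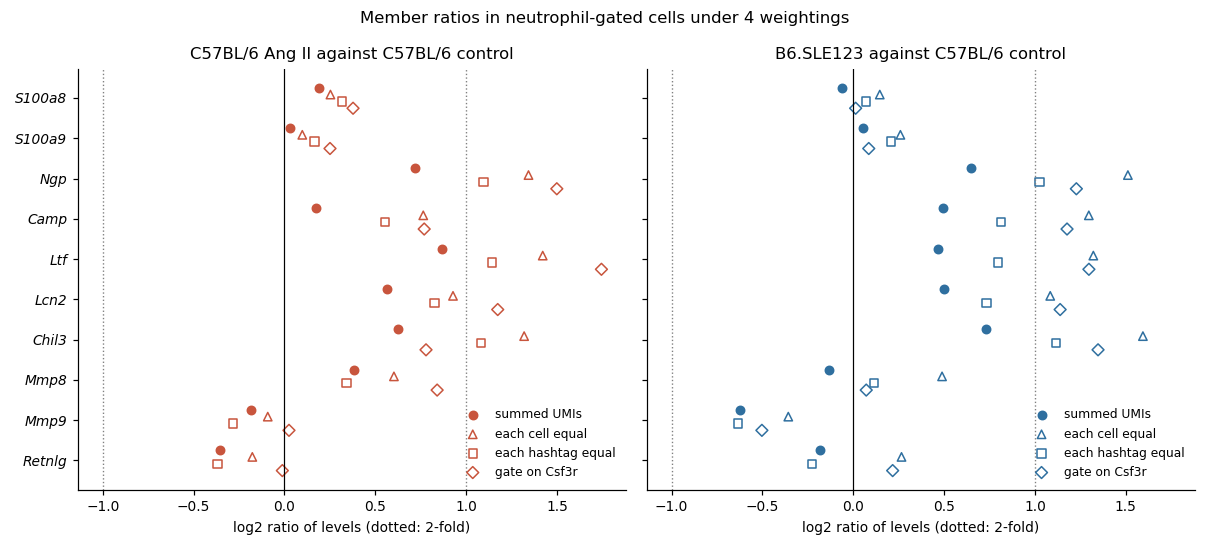
The log2 ratio to the control library of each member is plotted for the Ang II (left) and B6.SLE123 (right) library, with filled circles for summed UMIs, triangles for equal cells, squares for equal hashtags and diamonds for the Csf3r gate. Dotted lines mark 2-fold, which no filled circle passes and which Ngp, Ltf and Chil3 pass in both panels with equal cells.

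The shares of cells with a UMI of Ngp or Chil3 were also higher in the Ang II and B6.SLE123 libraries. Ngp was detected in 20.1%, 49.3% and 54.6% of neutrophil-gated cells, or 19.2%, 43.6% and 52.7% once each cell was thinned to 500 UMIs, which left no cell out. Chil3 was detected in 18.5%, 37.4% and 46.0% of cells (13.9%, 29.1% and 37.1% thinned). Retnlg was detected in 89.7%, 84.3% and 76.9% (79.7%, 66.9% and 63.1% thinned), in most cells of each library. For comparison, Ngp had a UMI in 0.579%, 9.54% and 4.15% of B cell-gated barcodes, whose median depth was 1797, 2777 and 1964 UMIs, or in 0.332%, 3.85% and 2.28% when thinned to 1000 UMIs. The share of neutrophil-gated cells with Ngp exceeded that in B cell-gated barcodes in each library.

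Within a library, neutrophil-gated cells fell mostly at the ends of a range. The sum of Ngp, Ltf, Lcn2 and Camp made up 5% or more of a cell's UMIs in 94 control (16.9%, 13.9% to 20.3%), 211 Ang II (35.5%, 31.7% to 39.5%) and 289 B6.SLE123 cells (44.7%, 40.9% to 48.7%). It made up under 0.5% in 409, 312 and 281 cells (73.6%, 52.5% and 43.5%), and only 53, 71 and 76 cells lay between. These are ranges of a measured share and not cell types, and 3, 6 and 18 cells lay within 4% to 6%. The cells at 5% or more held 97.6%, 98.5% and 98.4% of the specific granule UMIs and had a median of 5542, 8525 and 5114 UMIs, against 1076, 1642.5 and 831 in cells under 0.5%. By hashtag the share of cells at 5% or more ran from 3.70% to 33.8% (median 8.30%) in the control, from 15.6% to 43.2% (median 32.2%) in the Ang II and from 10% to 59.3% (median 33.9%) in the B6.SLE123 library. The hashtag populations thus overlapped between libraries, and without the highest one of each (C0302, C0302 and C0303) the shares were 11.3%, 31.4% and 33.2%.

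**Figure D3:**
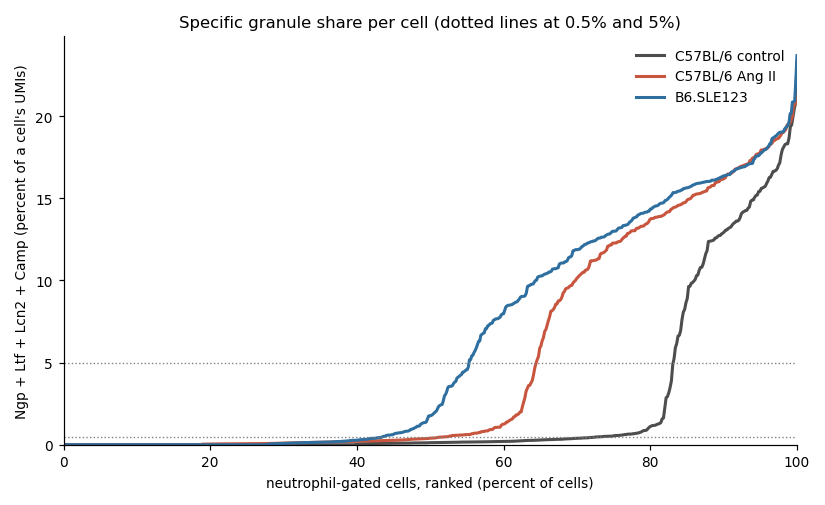
Neutrophil-gated cells of each library are ranked along the horizontal axis (percent of cells) by the share of their UMIs that came from Ngp, Ltf, Lcn2 and Camp (vertical axis, percent), with dotted lines at 0.5% and 5%. The control curve crosses 5% with 16.9% of its cells left, the Ang II curve with 35.5% and the B6.SLE123 curve with 44.7%.

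The other members marked different places in this range. Chil3 lay with the specific granule genes, at 5813, 6465 and 6379 CPM in cells at 5% or more and at 34.3, 7.46 and 539 CPM in cells under 0.5%. Retnlg peaked between, at 29028, 34497 and 46573 CPM in cells of 0.5% to 5%, against 3690, 3102 and 3945 CPM above and 11717, 10716 and 10405 CPM below. Mmp8 peaked there as well, at 1333, 1827 and 1743 CPM against 609, 697 and 444 CPM above and 311, 345 and 215 CPM below. Mmp9 was also highest in the middle range of each library, at 1773, 2070.5 and 1669.5 CPM, and stood at 792, 745 and 594 CPM above it and 1302, 1252 and 795 CPM below.

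S100a8 was high throughout and declined with the share, from 166768, 162228 and 133348 CPM at 5% or more to 69255, 64892 and 43183 CPM under 0.5%. S100a9 went from 197427, 172610 and 173163 CPM to 88372, 79539.8 and 63599.6 CPM. Genes outside the members separated the same ranges. Csf3r, a marker of mature neutrophils, was at 66.4, 71.8 and 71.9 CPM at 5% or more and at 2804, 2687 and 1860.3 CPM under 0.5%, and the chemokine receptor gene Cxcr2 went from 121, 124 and 139 CPM to 1581, 1523 and 1387 CPM. Cebpe, the gene for C/EBPε, went the other way, from 466, 459.9 and 557 CPM to 25.7, 22.4 and 49.9 CPM. The proliferation gene Mki67 was at 243, 236 and 298 CPM in cells at 5% or more.

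Among cells at 5% or more, the libraries lay closer together than over the whole gate for Ngp, whose level the range itself limits, and for Chil3. Ngp was at 51117, 60512 and 53800 CPM, Chil3 had log2 ratios to control of 0.15 and 0.13, and Retnlg in the Ang II library had a log2 ratio of -0.25 (-0.32 to -0.18) to control. The libraries lay further apart there for S100a9 (-0.19 and -0.19, against 0.03 and 0.06 over the whole gate). In the B6.SLE123 library this also held for S100a8 (-0.32, against -0.06) and Mmp8 (-0.45, against -0.13). The other ratios of S100a8 and Mmp8, and those of Mmp9 and Retnlg, lay nearer to control than over the whole gate. Among cells under 0.5%, S100a8 was lower in the B6.SLE123 library, with a log2 ratio of -0.68 (-0.71 to -0.65), as was Mmp9 at -0.71 (-0.93 to -0.50). The same B6.SLE123 cells held Elane, the azurophil gene for neutrophil elastase, at 1521 CPM and Chil3 at a log2 ratio of 3.97 (3.23 to 4.81) to control. Over the whole neutrophil gate, 4, 9 and 23 cells also passed a monocyte gate on Csf1r, Lyz2 and Ly6c2. Their part in the levels of cells under 0.5% was not tested. In the middle range Retnlg was higher in the B6.SLE123 library, with a log2 ratio of 0.68 (0.62 to 0.75).

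**Figure D4:**
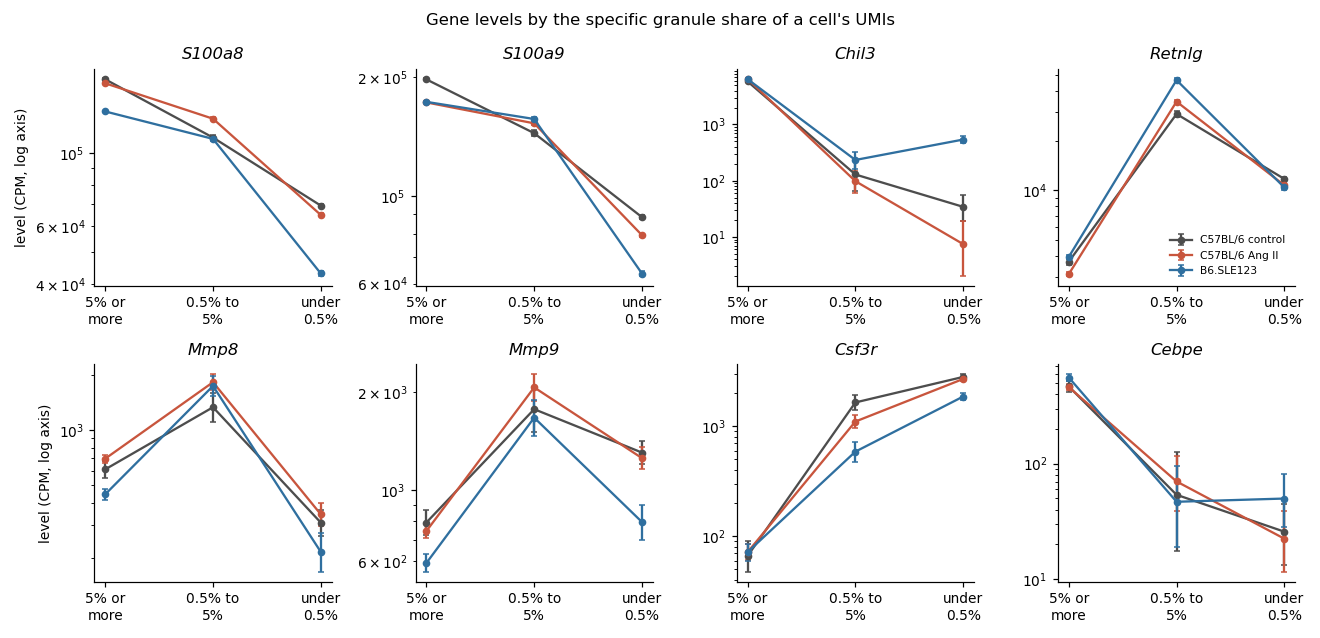
Levels in CPM (log axis, bars for exact Poisson 95% intervals) are plotted for 8 genes over neutrophil-gated cells with 5% or more, 0.5% to 5% and under 0.5% of their UMIs from the specific granule genes, with a line for each library. Chil3 and Cebpe are highest on the left in each library, Retnlg and Mmp8 peak in the middle, and Csf3r climbs from 66.4 to 2804 CPM in the control library.

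Cell by cell, the specific granule genes varied together. Pearson correlations of log-scaled counts within each library ran from 0.953 to 0.984 for Ngp with Camp, from 0.939 to 0.987 for Ngp with Ltf and from 0.840 to 0.946 for Ngp with Chil3. They were lower for Ngp with Lcn2 (0.670 to 0.850) and Ngp with S100a8 (0.516 to 0.651), and negative for Ngp with Retnlg (-0.352 to -0.299). Retnlg varied instead with Mmp8 (0.280 to 0.496) and Mmp9 (0.169 to 0.443). These are descriptions over 556, 594 and 646 cells that share a library and differ in depth. Ranked over 3162 genes by the lowest of the 3 correlations, the genes most like Ngp were Camp, Ltf, Cd177, Chil3, Cybb, Adpgk, Ifitm6 and Serpinb1a, at 0.953 down to 0.774. Those most like Retnlg were S100a6, S100a11, Ccl6, Srgn, Mmp8, Tyrobp, Msrb1 and Ftl1, at a weaker 0.482 down to 0.249.

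The other granule genes were read from fixed lists in the summed UMIs of the gate. In the B6.SLE123 library all 6 azurophil genes with 50 or more UMIs, of 7 listed, were 2-fold or more higher than in the control, with a median log2 ratio of 4.24. Mpo, the gene for myeloperoxidase, was at 2.55 CPM in the control (3 UMIs, log2 ratio 6.07, 4.51 to 8.35) and 171 CPM in B6.SLE123, Elane at 34.0 and 520.0 CPM, and Prtn3, the gene for proteinase 3, at 26.3 and 653 CPM. In the Ang II library none of 3 was 2-fold higher and Elane was lower (log2 ratio -1.37, -2.05 to -0.69). Progenitor-gated cells, with 5 or more UMIs of Mpo, Elane and Prtn3, made up 4, 7 and 25 of the neutrophil-gated cells. Without them 2 azurophil genes had enough UMIs in the B6.SLE123 comparison, both still 2-fold higher, and the ratio of the 4 specific granule genes was 0.56 and 0.63. No member was then past 2-fold, beside 2.23% and 5.54% of all genes higher and 2.39% and 5.36% lower.

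Of 8 further specific granule genes, 1 was 2-fold higher in the Ang II library (Abca13, log2 ratio 1.19, 0.71 to 1.71; median of the list 0.43) and 0 in the B6.SLE123 library (median 0.22), beside 4 of 8 in both with each cell weighted equally. Of 9 gelatinase granule and late neutrophil genes, 6 were 2-fold or more lower in the B6.SLE123 library (median -1.18), among them Csf3r (-1.78), the cytokine gene Il1b (-1.79) and the chemokine gene Ccl6 (-1.68). In the Ang II library only Ccl6 was (-1.09; median -0.57). With each cell weighted equally none of the 9 was 2-fold lower in either library.

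Among 6 other S100 genes, those with enough UMIs were not 2-fold changed in the Ang II library (4 genes). In the B6.SLE123 library S100a1 (1.09, 0.54 to 1.68) and S100a4 (1.06, 0.19 to 2.02, from 14 and 54 UMIs) were 2-fold higher. S100a6 and S100a11 were lower in both libraries, at log2 ratios of -0.57 and -0.58 in the Ang II and -0.81 and -0.77 in the B6.SLE123 library. Without progenitor-gated cells, 1 of these 6 genes was 2-fold higher in the B6.SLE123 library, and the list median went from 0.68 to -0.06. Of 7 genes for receptors and inhibitors of the members' proteins, 3 had enough UMIs. These were Tlr4, Fpr2 and the metalloproteinase inhibitor gene Timp2, and none was past 2-fold in either library. Ager, which like Tlr4 encodes a receptor for calprotectin, had too few, with 9, 10 and 4 UMIs. None of 4 granulocyte transcription factor genes with enough UMIs was past 2-fold either, with Cebpe at 0.42 and 0.79. Of the cycling genes, Top2a was at 0.54 and 1.05 and Mki67 at 0.45 and 0.94. With each cell weighted equally, 1 of the 4 transcription factor genes was 2-fold higher in the B6.SLE123 library and 0 in the Ang II library. Both cycling genes were then 2-fold higher in both libraries (medians 1.71 and 2.09), beside 6.49% and 10.6% of all genes.

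Outside the neutrophil gate, Chil3 was read in monocytes as well. In barcodes with monocyte genes (Csf1r, Lyz2 and Ly6c2) and under 10 UMIs of S100a8 plus S100a9, Chil3 was at 1041, 1286 and 768 CPM , over 153, 71 and 136 barcodes. Ngp held 0, 11 and 7 UMIs in the same barcodes. Progenitor-gated cells numbered 7, 9 and 54, but 4, 7 and 25 of them lay inside the neutrophil gate. Over all progenitor-gated cells Ngp was at 36666, 48551 and 24766 CPM, while Retnlg was at 41.1, 28.0 and 44.9 CPM.

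B cell-gated barcodes, with 2 or more UMIs of Cd79a, numbered 12951, 11356 and 12743 and served to read free RNA. The specific granule sum in them was 235 CPM in the control, 285 CPM in the Ang II and 502 CPM in the B6.SLE123 library. Most of it came from a few barcodes. Only 47 (0.363%), 59 (0.520%) and 50 (0.392%) held 10 or more UMIs of S100a8 plus S100a9, and these held 97.2%, 74.6% and 92.1% of the specific granule UMIs. Their median depth was 3011, 1859 and 3568 UMIs, against 1795, 2778 and 1960 in the rest. That they hold both a B cell and a neutrophil in 1 droplet was not tested.

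With these barcodes in, 1 of 10 members was 2-fold or more higher in the Ang II library (Mmp8, log2 ratio 1.07; 1.1% of all genes) and 4 of 10 in the B6.SLE123 library (Ngp 1.18, Camp 1.10, Ltf 1.12 and Chil3 1.48; 5.34% of all genes). None was 2-fold lower, beside 0.792% and 1.79% of all genes. The log2 ratio of the specific granule sum was 0.28 and 1.09, but leaving out 1 hashtag population at a time moved it from -0.096 (without Ang II C0304) to 1.47 (without control C0302) in the first comparison and from 0.55 (without B6.SLE123 C0303) to 2.28 (without control C0302) in the second. Between 0 and 6 members in the first and between 0 and 8 in the second were then 2-fold higher, with no share of all genes computed beside them.

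Without them, the remaining level was low, even across hashtags and different between libraries. The specific granule sum was 6.55 CPM in the control, 72.8 CPM in the Ang II and 39.7 CPM in the B6.SLE123 library, a log2 ratio of 3.47 (3.26 to 3.70) and 2.60 (2.37 to 2.83). The 6 hashtag populations ran from 4.47 to 9.89 CPM in the control, from 66.1 to 76.0 CPM in the Ang II and from 31.1 to 47.6 CPM in the B6.SLE123 library. These ranges did not overlap, but the populations of a library share that library and are not replicates of it. The share of all genes with ranges that do not overlap was not computed. Over the same hashtags the share of neutrophil-gated cells ran from 1.41% to 5.93%, from 1.72% to 11.5% and from 0.765% to 9.59%, which is a wider relative spread. Of 8 members with enough UMIs, 6 were 2-fold or more higher in each library, beside 1.13% and 5.39% of all genes, and none was 2-fold lower (0.936% and 1.8%). In the Ang II library these were Ngp (log2 ratio 3.72), Lcn2 (3.51), Ltf (3.47), Camp (3.16), S100a8 (2.12) and S100a9 (2.00). In the B6.SLE123 library they were Ngp (2.81), Camp (2.53), Lcn2 (2.44), Ltf (2.00), S100a8 (1.37) and S100a9 (1.30). Chil3 (0.83 and 0.82) and Retnlg (0.31 and 0.20) stayed below 2-fold in both. S100a8 and S100a9 were bounded by the limit of 10 UMIs that sets these barcodes, while the other members were not used by it.

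**Figure D5:**
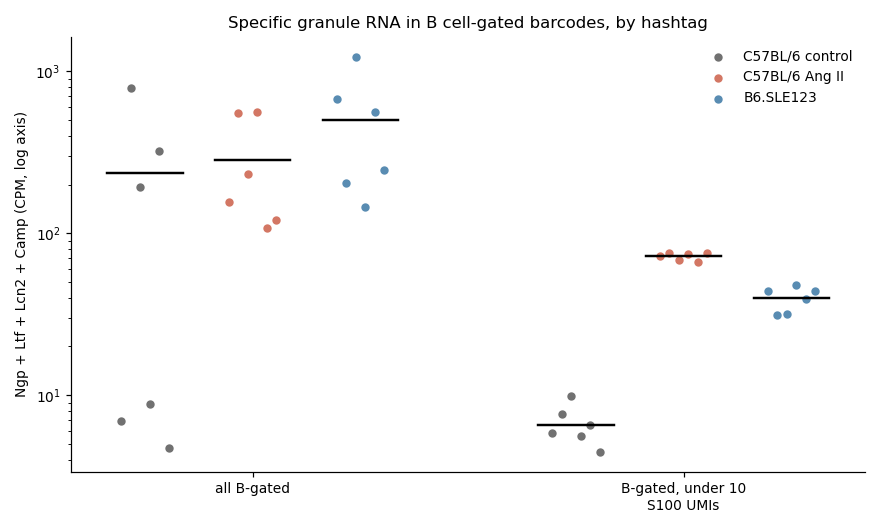
The specific granule sum in B cell-gated barcodes is plotted in CPM on a log axis, with a point for each hashtag population and a bar for the whole library, over all such barcodes (left) and over those with under 10 UMIs of S100a8 plus S100a9 (right). The points scatter widely on the left and on the right fall into 3 separate bands at 4.47 to 9.89, 31.1 to 47.6 and 66.1 to 76.0 CPM. The points of a library share that library and are not replicates of it.

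NK and plasma cell-gated barcodes were read in the same way. With under 10 UMIs of S100a8 plus S100a9, S100a8 held 33.5, 218 and 99.8 UMIs per 1000 B cell-gated barcodes and 14.2, 181 and 102 per 1000 NK cell-gated barcodes (493, 348 and 511 barcodes). Ngp held 5.42, 106 and 43.8 UMIs per 1000 in B cell-gated and 4.06, 83.3 and 41.1 in NK cell-gated barcodes. Per barcode the Ang II library was thus highest in both classes, but its barcodes were also the deepest in both. The median depth of these B cell-gated barcodes was 1795, 2778 and 1960 UMIs. Scaled to CPM the Ang II library did not stand out in NK cell-gated barcodes, where the specific granule sum was 7.33, 62.0 and 71.4 CPM at a median depth of 1715, 2459 and 1348 UMIs. Few UMIs lie behind these values, such as 29 (Ang II) and 21 (B6.SLE123) of Ngp. Their intervals, 20.4 to 43.7 and 16.9 to 41.7 CPM, overlap, so the order of these libraries cannot be told. Plasma cell-gated barcodes were few in the C57BL/6 libraries (21 and 36). In the B6.SLE123 library 317 of them held 129 UMIs of S100a8 and 41.0 of Ngp per 1000, close to the B and NK values per barcode. Their median depth was 10210 UMIs, and the specific granule sum was 8.42 CPM in them.

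The ratio of each member to S100a8 was then set beside that in the neutrophil-gated cells of the same library. For S100a9 it was 121%, 109% and 132% in neutrophil-gated cells and 138%, 127% and 131% in B cell-gated barcodes under 10 UMIs, or 119.9%, 114% and 130.2% in all of them. For Ngp it was 22.1%, 31.8% and 36.1% in neutrophil-gated cells, 16.2%, 48.8% and 43.9% in those B cell-gated barcodes and, from few UMIs, 28.6%, 46.0% and 40.4% in NK cell-gated ones. The limit of 10 UMIs bounds S100a8 itself, and over all B cell-gated barcodes the ratio for Ngp was 25%, 29.4% and 36.6%. In B cell-gated barcodes the ratio thus stood below that of the neutrophil-gated cells in the control and above it in the other libraries with the limit, and above it in the control, below it in the Ang II and close to it in the B6.SLE123 library without the limit. For Retnlg it was 7.17%, 4.93% and 6.60% in neutrophil-gated cells and 19.4%, 5.53% and 8.60% in the B cell-gated barcodes under 10 UMIs, or 6.83%, 7.24% and 5.08% in all of them. For Chil3 it was 2.48%, 3.37% and 4.30% against 13.4%, 5.49% and 9.16%, or 2.74%, 2.95% and 4.93% in all of them. In the control library the values under 10 UMIs rest on 84 UMIs of Retnlg and 58 of Chil3.

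Set beside the neutrophil levels, the free RNA was small. The 72.8 CPM of specific granule RNA in B cell-gated barcodes of the Ang II library stood against 109020 CPM in its neutrophil-gated cells. Any part of it in the neutrophil contrasts was not tested.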

How the data were processed

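The authors deposited raw UMI counts per gene and hashtag in each barcode for 3 libraries of splenocytes, which the headers credit to Cell Ranger 6.0.0 and the submitters' processing notes place on mm10, with no normalization. Filtering left barcodes that had more than 200 and fewer than 3500 genes, with mitochondrial UMIs below 15%. The study gives these limits as RNA counts, so UMIs were an alternative. A hashtag was called above an Otsu threshold on log counts, and barcodes with several were removed as doublets, which misses doublets within 1 hashtag. Of neutrophil-gated barcodes this removed 33 (control), 43 (Ang II) and 79 (B6.SLE123). The libraries held 44146350, 59043555 and 63516694 gene UMIs.

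Gates used raw UMIs: plasma cells 10 or more of Jchain and 3 or more of Xbp1; B cells 2 or more of Cd79a and not plasma; NK cells 2 or more of Ncr1, Klrb1c and Klre1 with no Cd79a or Cd3 UMI; monocytes 1, 5 and 2 or more of Csf1r, Lyz2 and Ly6c2. UMIs were summed per class and scaled to CPM, with exact Poisson intervals, exact Clopper-Pearson intervals for shares and exact conditional intervals for log2 ratios, all for counting error only. Genes with 50 or more UMIs over both libraries were compared at 2-fold, and the code was tested on simulated data. Correlations used the natural log of 1 plus counts per 10000.

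All 10 members were named, with genes of the fixed lists and the 8 genes most like Ngp and Retnlg. Members and lists were chosen with earlier results of these data known. Other filters, totals, gates, TMM scaling and leaving out each hashtag were tried. The effect of 2-HOBA was not analysed here. Gene positions are those of GENCODE vM21. Python 3.11.15, numpy 2.4.6, scipy 1.17.1, pandas 2.3.3 and, for TMM, edgeR 4.0.16 in R 4.3.3 were used.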

Additional observations from a re-analysis of the deposited data

How the results depend on the processing

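With 1 library for each group, precision covers counting error only, and low members such as Mmp8 are limited by depth. No paired analysis was possible because each group is 1 library and no result comes from a test. For the specific granule sum in neutrophil-gated cells, the log2 ratios to control of the Ang II and B6.SLE123 libraries (0.50 and 0.55) were -0.12 and 1.96 with the limits read as UMIs (1 and 5 members 2-fold higher, against 0), 0.49 and 0.54 without limits, 0.53 and 0.57 with several hashtags kept, 0.63 and 0.64 with the members out of the total, 0.60 and 0.53 with TMM scaling (which shifted all genes by 0.098 and -0.018), and 1.20 and 1.20 with the Csf3r gate (3 and 5 members). A gate at 50 UMIs gave 0.47 in the Ang II and one at 20 UMIs 0.57 in the B6.SLE123 library. Leaving out 1 hashtag population gave 0.42 to 0.87 (0 to 3 members) and 0.47 to 0.92 (0 to 1 member). Weightings and cell removals were chosen after seeing the data: 1.07 and 1.34 with equal cells (3 and 5 members), 0.85 and 0.88 with equal hashtags (3 and 2 members), 0.56 and 0.63 without progenitor-gated cells, and 0.48 and 0.52 without cells holding a Csf1r UMI. Among these alternatives, the share of all genes past 2-fold was computed only for the Csf3r gate, equal cells, equal hashtags and without progenitor-gated cells. The other counts of members have no such share to be read against.

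For the same sum in B cell-gated barcodes, the ratios were 0.28 and 1.09, with 1 and 4 members 2-fold higher. They were 2.16 and 2.04 with limits read as UMIs (5 members in the Ang II library) and 0.59 and 1.13 without limits. With several hashtags kept they were 1.55 and 1.76 (7 and 7 members). With 5 or more UMIs of Cd79a they were 1.39 and 2.15 (6 and 8 members). Without barcodes of 10 or more S100 UMIs they were 3.47 and 2.60 (6 members in each library). With equal cells they were 1.16 and 1.44 (4 members in the Ang II library), and with equal hashtags 0.38 and 1.21. Where a count is given for the Ang II library alone, that of the B6.SLE123 library is not listed here. Leaving out 1 hashtag population gave -0.096 to 1.47 (0 to 6 members) and 0.55 to 2.28 (0 to 8 members). Among these alternatives, the share of all genes past 2-fold was computed only without barcodes of 10 or more S100 UMIs. The members counted there include S100a8 and S100a9, which that limit bounds. The other counts of members have no such share to be read against. The causes were not tested beyond what each alternative removes or weights. Of all other values for single members, 410 moved by less than their counting interval and 510 by more.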
